A study of Mus musculus with 12 samples.

Results

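The genes described are 10 components of cytokine signalling through STAT proteins: the inhibitors *Socs1*, *Socs2*, *Socs3* and *Cish*, the serine/threonine kinases *Pim1* and *Pim3*, the transcription factors *Stat3*, *Stat5a* and *Stat5b*, and the receptor-associated kinase *Jak2*. They were chosen by gene symbol, and all 10 were measured, by 12 of 28944 transcript clusters (sets of probes that usually read a single gene), on a mouse gene array that named 19938 genes. *Socs2* and *Socs3* had a pair of clusters each, and the cluster with the higher mean signal over all arrays was used. Gene expression was measured in bone marrow neutrophils (Ly6G+ by their label) of wild-type (C57BL/6) and *Card9*-/- mice. The study's methods isolate neutrophils by hypotonic lysis and a Percoll gradient, and describe sorting on Ly6G for the test of neutrophil-specific deletion. CARD9 is an adapter protein that carries signals from Syk-coupled receptors, Fc receptors among them, and the study asked whether it was needed for gene expression changes on immune complexes. The *Card9* knockout (Card9tm1Jrld, homozygous) was in the germ line and not confined to neutrophils, and the labels do not say whether cells came from intact mice or from chimeras, nor how many mice gave an array; the study's methods name adult mice of both sexes. Cells of both genotypes spent 4 h on immobilized immune complexes (IC), that is, human serum albumin bound by an antibody against it, or on albumin without the antibody (control), and adherent and nonadherent cells were lysed together. The 2 genotypes and 2 surfaces gave 4 groups, and each group had 1 array in each of 3 experiments done at separate times, 12 in all. In these bulk samples, fewer cells of a type and less RNA per cell cannot be told apart.

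Cytokine receptors without kinase activity of their own bind Janus kinases (JAKs), which phosphorylate the receptor and then STAT proteins, and the STAT dimers enter the nucleus and switch on target genes. *Cish* and the *Socs* genes are among these targets, and their products act back on the pathway: SOCS1 and SOCS3 inhibit JAK activity, SOCS3 binds to the receptor chains of IL-6 and G-CSF, and CIS and SOCS2 act mainly on receptors that use STAT5. In neutrophils, G-CSF signals mainly through STAT3 and GM-CSF through JAK2 and STAT5. *Pim1* is a target of STAT5, of STAT3 and of NF-κB, and encodes a kinase that favours cell survival.

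STAT dimers bind the palindrome TTCNNNGAA. It was searched in windows of 300 bases around annotated starts (250 before and 50 after, RefSeq sequences of GRCm38.p6). The motif reads the same on both strands. The table held 12 windows for 9 of the genes, and *Socs2* was not among them. For *Socs3*, *Stat5a* and *Stat5b* the windows lay at starts inside the annotated gene, and its upstream end was outside them. Matches were found for *Cish* and *Socs3*, and both windows are shown for that reason. On IC, *Cish*, *Socs3*, *Socs1*, *Pim1* and *Stat5a* were below wild type in *Card9*-/- cells in all 3 experiments. The windows of the last 3 held no match. Sequence outside the windows was not searched, and a link between matches and signals was not tested. Capitals mark the matches. *Cish* (chr9:107296409-107296708, plus strand) had 2, TTCCTGGAA at bases 1 to 9 and TTCTTGGAA at bases 12 to 20 counted from the start site. *Socs3* (chr11:117969317-117969616, minus strand) had 1, TTCTTAGAA at bases −154 to −146.
*Cish*: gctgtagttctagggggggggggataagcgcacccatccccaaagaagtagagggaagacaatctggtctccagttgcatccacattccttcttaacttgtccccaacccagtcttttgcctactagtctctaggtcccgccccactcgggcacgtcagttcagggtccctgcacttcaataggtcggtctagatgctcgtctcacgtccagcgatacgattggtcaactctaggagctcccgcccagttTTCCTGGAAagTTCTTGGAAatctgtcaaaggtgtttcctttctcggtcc
*Socs3*: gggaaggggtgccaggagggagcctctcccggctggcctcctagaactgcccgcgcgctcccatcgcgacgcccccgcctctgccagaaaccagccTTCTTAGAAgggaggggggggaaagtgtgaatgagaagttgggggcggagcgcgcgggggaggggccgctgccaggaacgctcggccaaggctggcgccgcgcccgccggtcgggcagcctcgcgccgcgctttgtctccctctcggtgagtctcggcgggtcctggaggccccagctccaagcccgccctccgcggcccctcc
Of all 32851 windows in the table, 8.3% held at least 1 match and 0.457% held 2 or more. A match describes the letters only, and binding was not measured here.

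Before the groups were compared, labels and cells were checked. *Card9* differed between *Card9*-/- and wild-type cells by −2.52 on the control surface (log2 difference, SE 0.22, adjusted p = 0.00229, limma) and by −2.27 on IC (SE 0.22, adjusted p = 0.00491), lower in 3 of 3 experiments. All 12 neutrophil markers were measured, with a mean log2 signal between 12.1 and 12.4 in every array. Array medians lay between 5.70 and 5.75 in experiment 1, 5.86 and 5.93 in experiment 2, and 5.27 and 5.39 in experiment 3, so differences were taken within an experiment. Signals of different genes are read by different probes and were not set against each other.

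**Figure D1:**
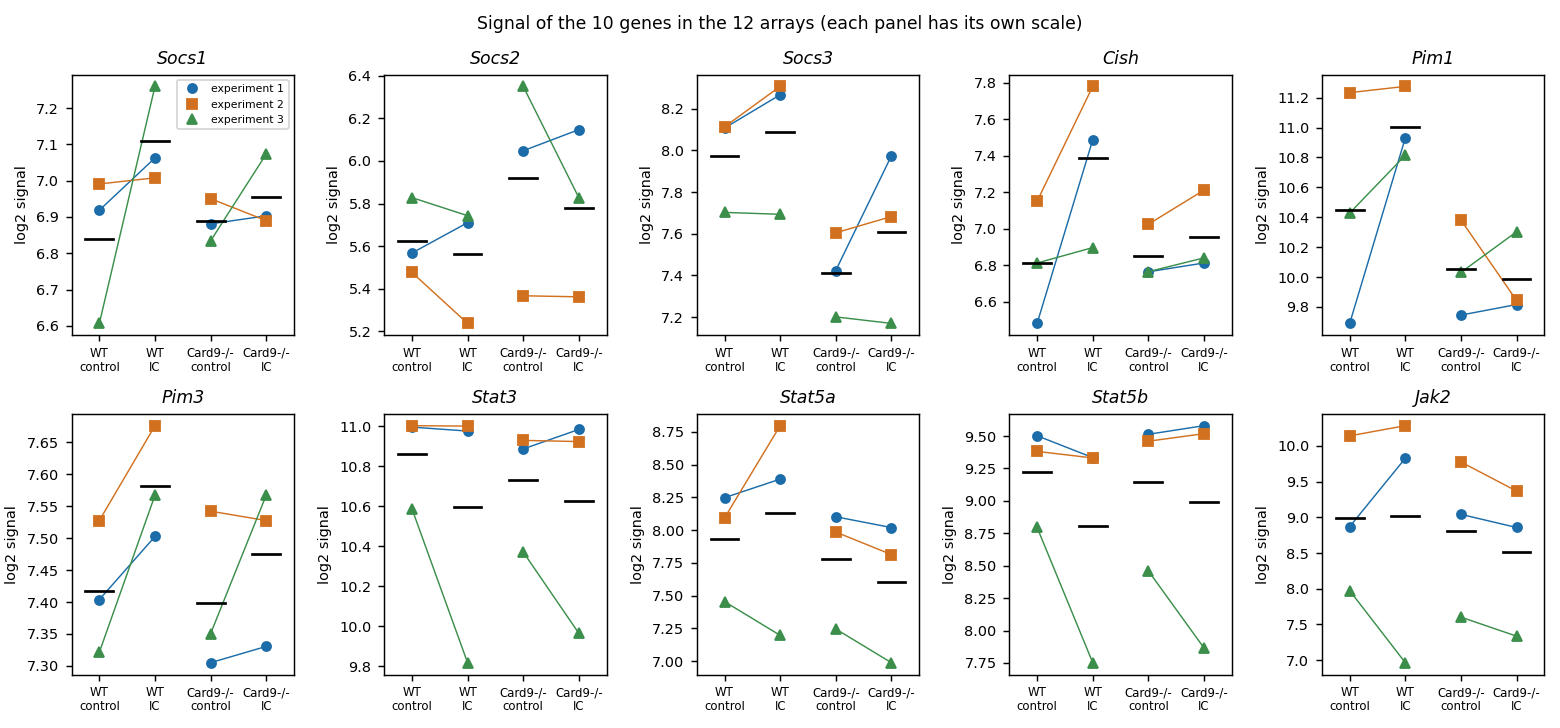
Log2 signal (y axis, own scale in each panel) of the 10 genes in the 4 groups (x axis), with 1 point per array, symbols for the 3 experiments, lines joining control and IC of the same genotype and experiment, and black bars for group means. In the *Pim1* panel the 3 *Card9*-/- IC arrays lie between 9.82 and 10.30 and the 3 wild type IC arrays between 10.81 and 11.28; *Stat3*, *Stat5a*, *Stat5b* and *Jak2* are lowest in experiment 3 in every group.

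The first comparison asked which of these genes answered to IC in wild-type cells. None of the 10 passed the threshold of 0.05 after Benjamini-Hochberg adjustment over all clusters (limma), nor did any cluster of the array (0%). At an unadjusted p under 0.05 there were 3, *Cish* and *Pim1* above the control and *Stat5b* below it, beside 9.59% of all clusters. Differences were above 0 for 7 genes (59.7% of all clusters) and below 0 for 3. Their median was 0.14 beside 0.039 over all clusters. In 4 genes the difference was above 0 in all 3 experiments (18.8% of all clusters). In 2 it was below 0 in all 3 (12.3% of all clusters). In *Card9*-/- cells none of the 10 passed the threshold (0% of all clusters), and none was under an unadjusted p of 0.05 beside 3.01% of all clusters. There 4 differences were above 0 (46.4% of all clusters) and 6 below. Their median was −0.085 beside −0.011 over all clusters. The difference between the genotypes' responses (*Card9*-/- minus wild type) passed for none of the 10 (0% of all clusters). At an unadjusted p under 0.05 it was below 0 for *Cish* alone, beside 3.68% of all clusters, with a median of −0.15 over the 10 beside −0.030 over all clusters.

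*Cish*, which encodes the feedback inhibitor CIS, had the largest mean wild-type response of the 10 genes. On the control surface its log2 signal was 6.48, 7.15 and 6.81 in experiments 1 to 3, and on IC 7.49, 7.78 and 6.90. Each IC array was above its own control, by 1.01, 0.63 and 0.085, although the groups overlap. In *Card9*-/- cells the signals were 6.76, 7.02 and 6.76 on the control surface and 6.81, 7.21 and 6.84 on IC, or 0.048, 0.19 and 0.076 above the control. All 3 steps were above 0 in *Card9*-/- cells too, and each was smaller than the wild-type step of the same experiment; in experiment 3 the steps of both genotypes were under 0.1. The wild-type mean difference was 0.57 (SE 0.15, 95% confidence interval 0.24 to 0.91, adjusted p = 0.389), the *Card9*-/- mean difference was 0.10 (SE 0.15, interval −0.23 to 0.44), and the difference between them was −0.47 (SE 0.21, interval −0.94 to −0.0016, adjusted p = 0.999). Without experiment 1 the wild-type response was 0.36 and without experiment 3 it was 0.82. The SDs of groups, given here and below, also hold the shifts between experiments. In order of their means, the groups stood at 7.39 ± 0.45 (wild type IC, SD, n = 3), 6.95 ± 0.22 (*Card9*-/- IC), 6.85 ± 0.15 (*Card9*-/- control) and 6.81 ± 0.34 (wild type control), and no neighbours in this order were further apart than their SDs summed.

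The *Pim1* response was uneven between the experiments. Its wild-type signals were 9.69, 11.23 and 10.43 on the control surface and 10.93, 11.28 and 10.81 on IC. The step was thus 1.24 in experiment 1, where the control array was the lowest of the 12, and 0.042 in experiment 2, where the control array was already within 0.1 of the IC array; in experiment 3 it was 0.39. In *Card9*-/- cells the signals were 9.75, 10.38 and 10.03 on the control surface and 9.82, 9.84 and 10.30 on IC, with steps of 0.070, −0.54 and 0.27. Above the control in 3 of 3 wild-type experiments, *Pim1* was above it in 2 of 3 *Card9*-/- experiments. The mean differences were 0.56 (SE 0.24, interval 0.034 to 1.08, adjusted p = 0.499) in wild-type and −0.065 (SE 0.24, interval −0.59 to 0.46) in *Card9*-/- cells, and their difference was −0.62 (SE 0.34, interval −1.36 to 0.12, adjusted p = 0.999). That difference was below 0 in each experiment, at −1.17, −0.58 and −0.11. *Pim3*, a relative of *Pim1*, showed smaller steps: 0.099, 0.15 and 0.25 in wild-type cells, all above 0, and 0.026, −0.015 and 0.22 in *Card9*-/- cells.

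Among the SOCS inhibitors, *Socs1* stood at 6.92, 6.99 and 6.61 on the control surface and at 7.06, 7.01 and 7.26 on IC in wild-type cells. All 3 IC arrays were above all 3 control arrays, and *Socs1* was the only one of the 10 genes with such a separation (1.72% of all clusters had one, in either direction). The separation was narrow, as the highest control and the lowest IC array were 6.99 and 7.01, and most of the mean difference of 0.27 (SE 0.13, interval −0.0051 to 0.55, adjusted p = 0.525) came from experiment 3, with 0.65 beside 0.14 and 0.017. In *Card9*-/- cells *Socs1* differed by 0.022, −0.061 and 0.24, with groups that overlap, as they did for all 10 genes in that genotype (0.922% of all clusters did not overlap). *Socs3* differed by 0.16, 0.19 and −0.0090 in wild-type cells and by 0.55, 0.078 and −0.031 in *Card9*-/- cells. Its mean responses of 0.11 (interval −0.14 to 0.37) and 0.20 (interval −0.059 to 0.46) thus differed by 0.084 (interval −0.28 to 0.45). *Socs2*, with signals of 5.24 to 6.35 that lie near the array medians, differed by 0.14, −0.24 and −0.085 in wild-type cells and by 0.099, −0.0048 and −0.52 in *Card9*-/- cells, without a common direction.

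Among the STATs and *Jak2*, experiment 3 stood apart. *Stat5b* had wild-type signals of 9.50, 9.38 and 8.80 on the control surface and 9.33, 9.33 and 7.75 on IC, so that the step was −0.17, −0.051 and −1.04. All 3 steps were below 0, and the mean of −0.42 (SE 0.19, interval −0.83 to −0.0091, adjusted p = 0.511) was −0.11 without experiment 3. In *Card9*-/- cells the steps were 0.066, 0.058 and −0.59. *Stat3*, the STAT used by the G-CSF and IL-6 receptors, likewise differed by −0.020, −0.0021 and −0.77 in wild-type and by 0.098, −0.0059 and −0.41 in *Card9*-/- cells. *Jak2* had no common direction: its wild-type signals were 8.87, 10.14 and 7.97 on the control surface and 9.83, 10.28 and 6.96 on IC, with steps of 0.96, 0.14 and −1.01 and a mean of 0.030 (SE 0.28, interval −0.58 to 0.64). In *Card9*-/- cells its steps were −0.18, −0.41 and −0.27, all below 0. *Stat5a* differed by 0.14, 0.70 and −0.26 in wild-type cells and by −0.082, −0.17 and −0.26 in *Card9*-/- cells, again all below 0 in the latter.

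IC differences also spread more widely over the whole array in experiment 3. Over the 14472 clusters with above-median signal, the SD of the wild-type IC difference was 0.47 in experiment 3 beside 0.30 and 0.23 in experiments 1 and 2, and that of the *Card9*-/- difference 0.35 beside 0.20 and 0.16. The part of this wider spread in the values of *Stat3*, *Stat5b* and *Jak2* was not tested.

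**Figure D2:**
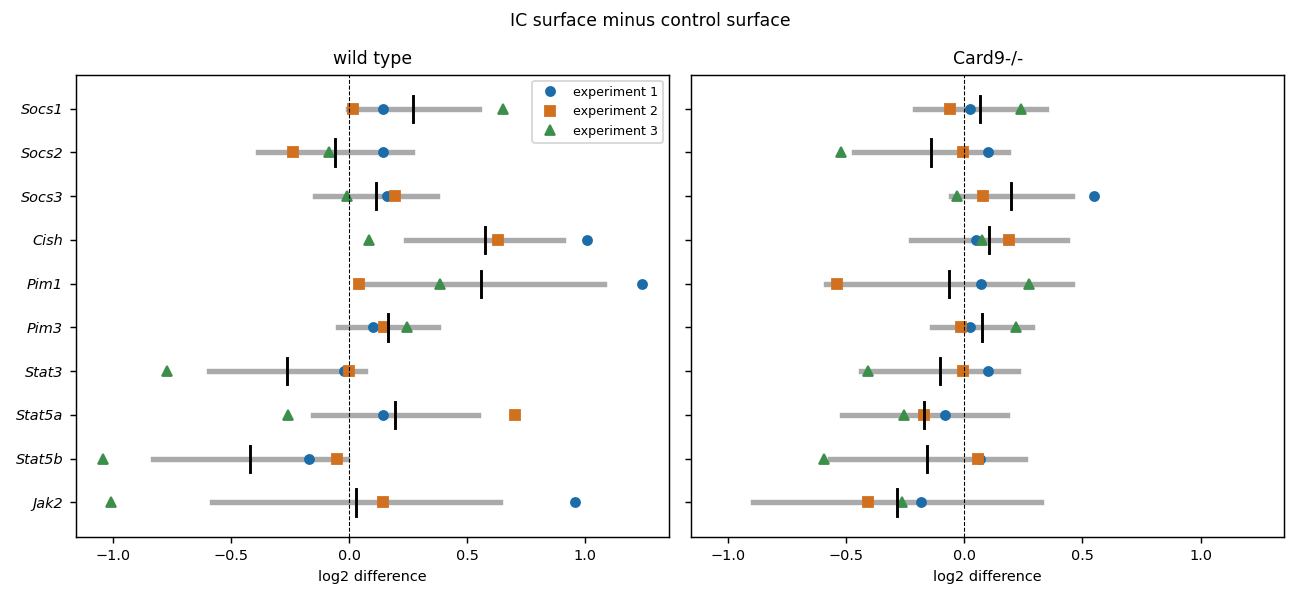
Log2 difference between IC and control surface (x axis) of the 10 genes (y axis) in wild-type and *Card9*-/- cells, with 1 point per experiment, black ticks for the mean of 3 and grey bars for the 95% confidence interval of the limma fit. *Cish* and *Pim1* lie to the right of 0 in all wild-type experiments, with means of 0.57 and 0.56, and *Stat3*, *Stat5b* and *Jak2* have their lowest wild-type point in experiment 3.

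The genotypes were then compared on each surface. These comparisons share their arrays with those above and are not independent of them. On the control surface none of the 10 genes passed the threshold, beside 0.038% of all clusters (11, all lower in *Card9*-/- cells, *Card9* among them), and *Socs3* alone had an unadjusted p under 0.05, beside 4.64% of all clusters. Of the 10 differences 3 were above 0 (57.4% of all clusters) and 7 below. Their median was −0.11 beside 0.026 over all clusters. On IC again none of the 10 passed, beside 0.162% of all clusters (47, of which 13 were higher and 34 lower in *Card9*-/- cells). At an unadjusted p under 0.05 there were 4, *Pim1*, *Socs3*, *Stat5a* and *Cish*, all below wild type, beside 9.13% of all clusters. There too 3 differences were above 0 (46.4% of all clusters) and 7 below. Their median was −0.29 beside −0.014 over all clusters. Below wild type in all 3 experiments were 5 genes (15.4% of all clusters).

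*Pim1* had the largest genotype difference of the 10 genes. On IC the wild-type arrays held 10.93, 11.28 and 10.81 and the *Card9*-/- arrays 9.82, 9.84 and 10.30, so that the highest *Card9*-/- array was below the lowest wild-type array. *Pim1* was the only one of the 10 genes whose groups did not overlap on IC (1.87% of all clusters did not, in either direction). The difference was −1.12, −1.43 and −0.51, with a mean of −1.02 (SE 0.24, interval −1.54 to −0.50, adjusted p = 0.155). Fitted on the IC arrays alone the adjusted p was 0.0509, the lowest that any of the 10 genes reached in any comparison and under any alternative setting. On the control surface the differences were 0.056, −0.85 and −0.40, with a mean of −0.40 (SE 0.24, interval −0.92 to 0.12, adjusted p = 0.954). By group, *Pim1* stood in the order 11.01 ± 0.24 (wild type IC, SD, n = 3), 10.45 ± 0.77 (wild type control), 10.05 ± 0.32 (*Card9*-/- control) and 9.99 ± 0.27 (*Card9*-/- IC). Neighbours in this order lay closer than their SDs summed, while wild type IC lay further than that from both *Card9*-/- groups. *Pim3* differed by −0.11 (interval −0.32 to 0.10) on IC and by −0.018 (interval −0.23 to 0.19) on the control surface.

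*Socs3* stood below wild type in *Card9*-/- cells on both surfaces and in every experiment. Its control signals were 8.11, 8.11 and 7.70 in wild-type and 7.42, 7.60 and 7.20 in *Card9*-/- cells, and the groups did not overlap. It was the only one of the 10 genes without overlap on the control surface (1.42% of all clusters). The differences of −0.68, −0.51 and −0.50 gave a mean of −0.56 (SE 0.12, interval −0.82 to −0.31, adjusted p = 0.380). On IC, where wild-type cells held 8.27, 8.31 and 7.69 and *Card9*-/- cells 7.97, 7.68 and 7.17, the groups overlapped and the differences were −0.29, −0.62 and −0.52, with a mean of −0.48 (SE 0.12, interval −0.74 to −0.22, adjusted p = 0.182). The other *Socs3* cluster, with a signal near 6, did not show this on the control surface, where it differed by −0.26, 0.12 and −0.035; on IC it differed by 0.087, −0.57 and −0.26. By group, *Socs3* stood at 8.09 ± 0.34 (wild type IC, SD, n = 3) and 7.97 ± 0.24 (wild type control). *Card9*-/- cells held 7.61 ± 0.41 on IC and 7.41 ± 0.20 on the control surface. Neighbours in this order were not further apart than their SDs summed, but both wild-type groups were so from *Card9*-/- control.

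*Cish* was below wild type on IC in 3 of 3 experiments, with differences of −0.68, −0.57 and −0.056. The mean difference was −0.43 (SE 0.15, interval −0.77 to −0.10, adjusted p = 0.381), while on the control surface it was 0.036 (interval −0.30 to 0.37), with 0.28, −0.13 and −0.048 in the experiments. *Socs1* was also below wild type on IC in all 3 experiments (−0.16, −0.12 and −0.19), with a mean of −0.15 (interval −0.43 to 0.12). *Socs2* went the other way on IC, at 0.44, 0.12 and 0.085 above wild type (mean 0.22, interval −0.11 to 0.54). Its other cluster differed by −0.18, 0.15 and −0.58, so the direction for *Socs2* rests on which cluster is read. Which of these clusters reads the gene better was not tested.

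The STAT5 proteins are close relatives encoded by neighbouring genes, and their transcripts differed in opposite directions on IC. *Stat5a* signals were 8.39, 8.80 and 7.20 in wild-type and 8.02, 7.81 and 6.99 in *Card9*-/- cells, a difference of −0.37, −0.98 and −0.21 with a mean of −0.52 (SE 0.16, interval −0.87 to −0.17, adjusted p = 0.298). *Stat5b* signals were 9.33, 9.33 and 7.75 beside 9.58, 9.52 and 7.87, a difference of 0.25, 0.19 and 0.11 with a mean of 0.18 (SE 0.19, interval −0.23 to 0.59, adjusted p = 0.838). Each gene kept its direction in 3 of 3 experiments, and the groups of both overlap; the contrast between the genes was not tested. Without IC they differed by −0.15 (interval −0.50 to 0.20) and −0.082 (interval −0.49 to 0.33). *Stat3* was close to wild type, with −0.13 (interval −0.46 to 0.20) on the control surface and 0.026 (interval −0.31 to 0.36) on IC. *Jak2*, which relays the GM-CSF signal to STAT5, was below wild type on IC in experiments 1 and 2 (−0.97 and −0.92) and above it in experiment 3 (0.37; mean −0.50, SE 0.28, interval −1.11 to 0.11, adjusted p = 0.639).

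**Figure D3:**
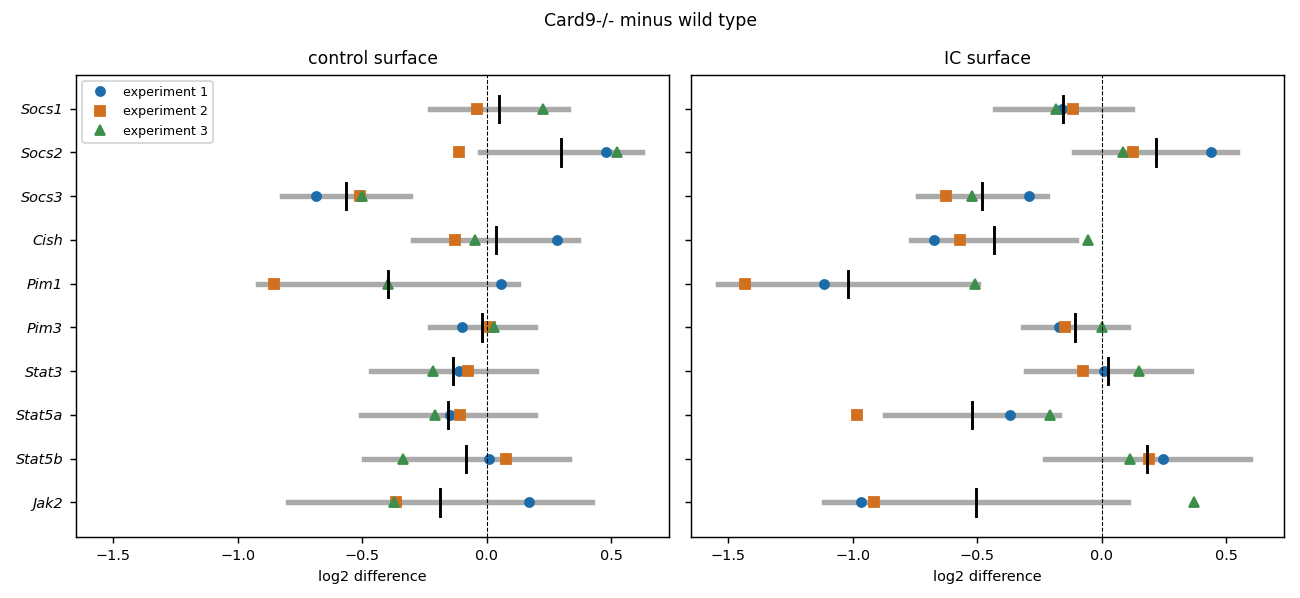
*Card9*-/- minus wild type log2 signal (x axis) of the 10 genes (y axis) on each surface, with 1 point per experiment, black ticks for the mean of 3 and grey bars for the 95% confidence interval of the limma fit. *Socs3* lies left of 0 on both surfaces in all experiments, *Pim1* has the lowest mean on IC at −1.02, and *Stat5b* lies right of 0 on IC while *Stat5a* lies left of it.

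Marker lists of other cells differed between the genotypes in both directions. On IC, 8 of 8 measured B cell markers were above wild type in *Card9*-/- arrays (median 0.66; 1.22, 0.071 and 0.48 in experiments 1 to 3), and their summed linear signal ranged from 342 to 3454.5 in wild type IC and from 364 to 5006 in *Card9*-/- IC arrays. All 9 eosinophil, basophil and mast cell markers were above wild type as well (median 0.45; −0.087, 0.23 and 0.86), with summed signals of 2161 to 4295 and 3082 to 7691. Of the T and NK cell markers 6 of 8 were above wild type (median 0.13), of the monocyte and macrophage markers 3 of 8 (median −0.028) and of the erythroid markers 1 of 6 (median −0.21). None of these markers passed the threshold on IC, beside 0.162% of all clusters. Of all clusters, 46.4% were above wild type on IC and 57.4% on the control surface. On the control surface 7 of 8 B cell markers were above wild type (median 0.36). So were 8 of 9 eosinophil, basophil and mast cell markers (median 0.33) and 7 of 8 T and NK cell markers (median 0.12). Of the monocyte and macrophage markers 3 of 8 were, and of the erythroid markers 2 of 6. Of 12 neutrophil markers, 11 were above wild type on IC (median 0.090) and 11 below it on the control surface (median −0.072). Between IC and control, B cell marker medians in experiments 1 to 3 were −0.083, 0.049 and 0.60 in wild-type cells. In *Card9*-/- cells they were 0.14, 0.11 and 0.95. The part of these other cell types in the values of the 10 genes was not tested.

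The rest of the pathway was described with a list of 113 further genes, of which 102 were measured. The other 11 were not analysed here. At most 3 genes of each role were named per comparison, chosen among those with the same direction in all 3 experiments. For the named genes, that agreement between experiments thus followed from the choice. None of the 102 passed the threshold in any of the 5 comparisons. In wild-type cells 15 had an unadjusted p under 0.05 on IC against control (11 higher, 4 lower) beside 9.59% of all clusters, and the median of the 102 was 0.014 beside 0.039 over all clusters. On IC, 24 had one between the genotypes (5 higher and 19 lower in *Card9*-/- cells) beside 9.13% of all clusters, with a median of −0.068 beside −0.014. Between the genotypes without IC it was 13 (4 higher, 9 lower) beside 4.64%, for the *Card9*-/- response to IC 6 (5 higher, 1 lower) beside 3.01%, and for the difference between responses 2, both below 0, beside 3.68%.

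Among 26 ligands, *Il10*, an anti-inflammatory cytokine that signals through STAT3, had the largest mean wild-type difference, with 2.11, 2.62 and 0.22 (mean 1.65, SE 0.45, adjusted p = 0.410). Its control signals of 3.59, 4.99 and 4.45 lay below the array medians, and the values carry no call of detection above background. *Il23a*, the p19 subunit of IL-23, was above the control by 0.53, 1.24 and 1.98 in wild-type cells (mean 1.25, SE 0.28, adjusted p = 0.325) and by 0.39, 0.42 and 1.62 in *Card9*-/- cells (mean 0.81). *Il6*, the main ligand of gp130 in inflammation, was above the control in all experiments of both genotypes, with 1.46, 0.95 and 0.99 in wild-type (mean 1.14, SE 0.61) and 0.56, 0.46 and 2.30 in *Card9*-/- cells (mean 1.11, SE 0.61). The near-equal means rest on experiment 3, since in experiments 1 and 2 the *Card9*-/- step was the smaller. *Il6* control signals also lay below the array medians in wild-type experiments 1 and 3 (3.92 and 4.55). In *Card9*-/- cells they did so in experiments 1 and 2, with 3.57 in experiment 1. *Il23a* control signals lay below the medians in wild-type experiment 1 and in all 3 *Card9*-/- experiments. Between the genotypes, *Il23a* differed by −1.16 on IC (−0.67, −1.40 and −1.40, adjusted p = 0.176) and by −0.72 on the control surface (−0.53, −0.58 and −1.04). *Csf3*, which encodes G-CSF, differed by −0.42 on IC (adjusted p = 0.337), and *Il4* by 0.53 (adjusted p = 0.182). *Csf3* signals of 4.87 to 6.34 and *Il4* signals of 5.33 to 6.22 lay near the array medians. The lack of a detection call applies to all of these ligands.

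Among 31 receptors, *Il6ra*, the IL-6 binding chain, differed between IC and control by −0.43, −0.51 and −0.69 in wild-type cells (mean −0.55, SE 0.12, adjusted p = 0.292) and by −0.27, −0.40 and −0.19 in *Card9*-/- cells. *Il10ra*, the IL-10 binding chain, differed between the genotypes on IC by −1.84, −1.26 and −0.55 (mean −1.22, SE 0.39, adjusted p = 0.331), and *Ifnar1*, a chain of the type I interferon receptor, by −0.81, −0.48 and −0.34. *Il5ra*, which is also among the eosinophil markers above, stood above wild type in all 3 experiments on both surfaces, with means of 0.60 and 0.77.

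Of the 5 other kinases and STATs, *Tyk2*, the Janus kinase of the interferon, IL-10 and IL-12 family receptors, differed between the genotypes on IC by −1.88, −1.51 and −0.26 (mean −1.22, SE 0.31, adjusted p = 0.184), and *Stat6*, the STAT of IL-4, by −0.094, −0.17 and −0.31. *Jak1* differed by −0.36 between IC and control in wild-type cells on average, with −0.86 in experiment 3. The 17 other inhibitors had a median of −0.027 between the genotypes on IC, beside −0.014 over all clusters. *Usp18*, an interferon-induced inhibitor of the type I interferon receptor, stood below wild type on both surfaces in 3 of 3 experiments, with −0.86 (SE 0.17, adjusted p = 0.338) on the control surface and −0.66 (SE 0.17, adjusted p = 0.182) on IC. *Pias4* and *Ptpn1*, the latter a phosphatase of JAK2 and TYK2, had mean differences of −0.55 and −0.45 on IC.

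Between the genotypes, the 23 target genes had a median of −0.33 on IC, beside −0.014 over all clusters. On the control surface their median was −0.23, beside 0.026 over all clusters. On IC 6 were above 0 (46.4% of all clusters) and 17 below, 11 of them in all 3 experiments (15.4% of all clusters were). At an unadjusted p under 0.05 there were 9 (1 higher, 8 lower, beside 9.13% of all clusters). On the control surface 7 were above 0 (57.4% of all clusters) and 16 below, 12 of them in all 3 experiments (12.8% of all clusters were). There 5 had an unadjusted p under 0.05 (1 higher, 4 lower, beside 4.64% of all clusters). *Osgin1*, *Gadd45g* and *Cebpb* had mean differences of −0.86, −0.79 and −0.64 there. On IC, *Pim2*, the third kinase of the PIM family, differed by −1.98, −1.75 and −0.36 (mean −1.37, SE 0.42, adjusted p = 0.307). *Pim1* differed by −1.02 and *Pim3* by −0.11 there. *Bcl3*, an NF-κB cofactor, differed by −1.66, −1.16 and −0.93 (mean −1.25, SE 0.32, adjusted p = 0.182) and *Cebpb*, a transcription factor of myeloid cells, by −1.18, −1.65 and −0.13 (mean −0.99, SE 0.28, adjusted p = 0.253). In wild-type cells *Cebpb*, *Bcl3* and *Il1rn*, the antagonist of the IL-1 receptor, were above the control on IC in all 3 experiments, by 1.01, 0.73 and 0.47 on average, although *Bcl3* differed by 2.01 in experiment 1 and by 0.18 and 0.012 in the others.

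**Figure D4:**
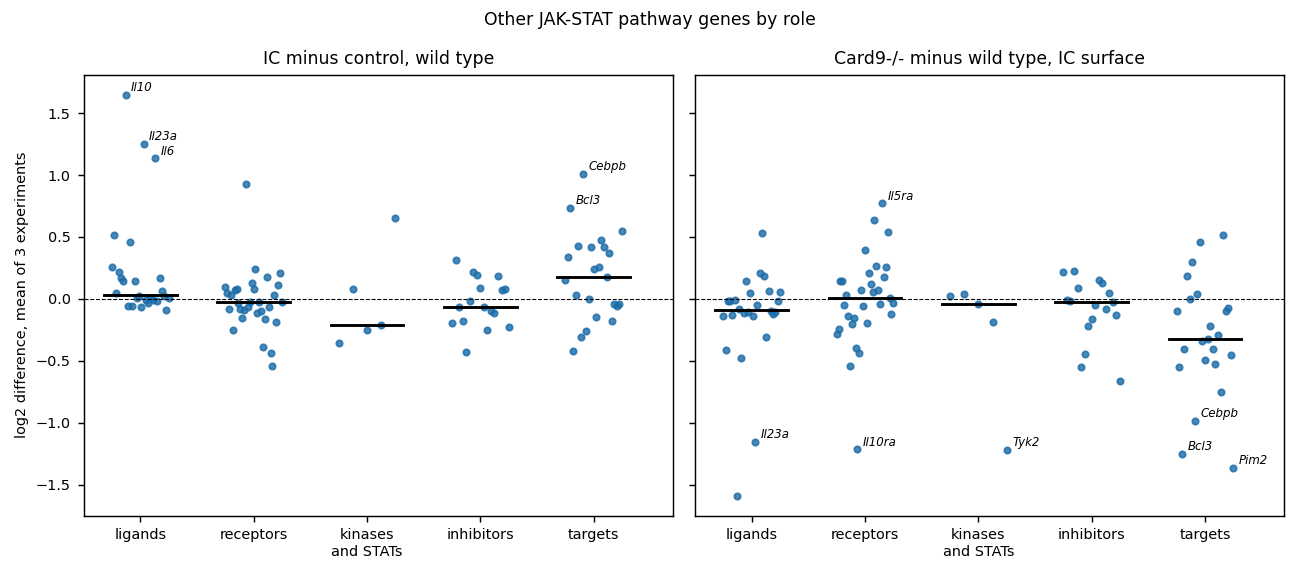
Log2 difference (y axis, mean of 3 experiments) of the 102 further pathway genes grouped by role (x axis), between IC and control in wild-type cells and between *Card9*-/- and wild-type cells on IC, with 1 point per gene and black bars for the median of each role. Names mark the genes described in the text with a mean difference beyond 0.7 in either direction, each in the same direction in all 3 experiments; targets have medians of 0.18 and −0.33.

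For *Socs3*, *Cish* and *Pim1*, the genes with the most similar pattern were listed by the Pearson correlation over the 12 arrays, after each experiment's mean was subtracted. The measure describes these arrays, which share 3 experiments and 4 groups. For *Pim1* they were *Tnfaip3* (r = 0.985), *Gpr132* (0.985), *Layn* (0.981), *Icam1* (0.977) and *Nfkbia* (0.968). For *Socs3* they were *Ppard* (0.935), *Slc15a3* (0.929), *Ninj1* (0.929), *Tnfaip6* (0.928) and *Oasl1* (0.925). For *Cish* they were *Cep83* (0.978), *Pex13* (0.970), *Ubash3b* (0.955), *Nos2* (0.950) and *Btbd9* (0.947). No gene was on more than 1 of these 3 lists.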

How the data were processed

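Total RNA (150 ng) was amplified and labelled with the Ambion WT Expression and GeneChip WT Terminal Labeling kits for an Affymetrix mouse gene array. The authors deposited 1 table of normalized log2 signals, with a row for each transcript cluster; how they corrected background, summarized probes and normalized arrays is not given in the sources read for this work. The scale was read from the range of the values. Array medians differed between experiments, so levels across experiments are less comparable than differences within them.

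Of 35556 rows, 6612 outside the range of annotated identifiers were dropped as control probe sets, which left 28944 clusters for the tests, without a filter on signal and without further normalization; 476 had values identical to an earlier one. Symbols came from the platform annotation: 21789 clusters name 1 gene, 1621 several and 5534 none, and 0 symbols needed an update. All 12 arrays entered 1 fit (lmFit and eBayes of limma 3.58.1 in R 4.3.3) that held group and, as a fixed block, experiment (6 residual and 5.4 prior degrees of freedom), and p-values were two-sided and adjusted by Benjamini-Hochberg over all clusters of a comparison. The experiment numbers pair the arrays by the labels: deviations from group means correlated at 0.671 to 0.867 for the same number and at −0.727 to 0.355 for different ones. Nothing in the labels says that the experiments used separate mice in known numbers. The p-values thus rest on the spread left between these arrays once group and experiment are fitted, moderated by eBayes over all clusters. The number of arrays, 3 per group, limits precision. The fit was tested on simulated data. Python 3.11.15, numpy 2.4.6, pandas 2.3.3 and matplotlib 3.10.9 were used for the rest.

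The 10 genes, the pathway list, the markers and the tests were chosen with earlier results of these data known. Of the pathway list, at most 3 genes of each role were named per comparison, those with the largest mean difference among genes with the same direction in all 3 experiments; for likeness, 5 single-gene clusters with above-median signal per gene. Alternatives were no block, a random block, centring on array medians, quantile normalization, limma-trend, robust eBayes, only clusters brighter than the median, only the groups compared, a factorial test as in the study's two-way analysis, control rows kept, the mean of a gene's clusters, and leaving out each experiment.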

Additional observations from a re-analysis of the deposited data

How the results depend on the processing

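None of the 10 genes passed the threshold under any of the 14 alternatives in any of the 5 comparisons. Fitted with no replicate block, the pairing by experiment thus changed no call of these genes, but it set the counts over all clusters: without the block 0 clusters passed on IC and 1 on the control surface between the genotypes, in place of 47 and 11. The IC count was 105 with a random block, 22 with median centring, 173 on the compared arrays alone, 0 in the factorial test, 14 with control rows kept, and 76, 3 and 116 without experiments 1, 2 and 3. The control surface count was 6 with robust eBayes, 7 on the compared arrays alone, 0 in the factorial test, 2 with control rows kept, and 4, 2 and 7 without each experiment. The wild-type IC count of 0 became 7 with a random block and 51, 1 and 8 without each experiment. The cause of these shifts was not tested.

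Of 660 values of the 10 genes under alternatives, 637 kept their direction and 23, all of differences that had not passed, turned it. With median centring, *Jak2* in the wild-type response became −0.024, and on the control surface *Socs1* became −0.0043 and *Cish* −0.018. Quantile normalization gave *Pim3* 0.0043 on the control surface and *Stat3* −4.6e-05 on IC, and the mean of both *Socs3* clusters gave −0.053 for the difference between responses. Leaving out each experiment in turn, the wild-type response ranged from −0.16 to 0.029 for *Socs2*, −0.058 to 0.42 for *Stat5a* and −0.43 to 0.55 for *Jak2*. The *Card9*-/- response ranged from −0.019 to 0.13 for *Socs1*, −0.26 to 0.047 for *Socs2*, −0.23 to 0.17 for *Pim1*, −0.21 to 0.046 for *Stat3* and −0.27 to 0.062 for *Stat5b*. The difference between responses ranged from −0.24 to 0.096 for *Socs2*, −0.069 to 0.18 for *Socs3* and −0.85 to 0.096 for *Jak2*. On the control surface the genotype difference ranged from −0.039 to 0.095 for *Socs1*, −0.087 to 0.12 for *Cish*, −0.042 to 0.022 for *Pim3* and −0.16 to 0.045 for *Stat5b*, and on IC from −0.035 to 0.078 for *Stat3*. *Pim1* on IC stayed between −1.27 and −0.81, and *Socs3* between −0.60 and −0.51 on the control surface and between −0.57 and −0.41 on IC.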
